A study of Homo sapiens with 8 samples.

Results

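The 8 E2F transcription factors (E2F1 to E2F8), MYBL2 (B-MYB) and FOXM1 were followed as a family of cell cycle regulators through all groups of the series. Members were chosen by gene symbol, and the 10 genes were taken from 58302 in each library. The series asked which pathways may let lung cancer cells resist TP-0903, an inhibitor of AXL (a receptor tyrosine kinase), and used A549, an established human lung adenocarcinoma line. RNA was sequenced from 8 cultures in 4 groups of 2: A549 with a short hairpin RNA (shRNA) against AXL, A549 with a control shRNA, A549 given 40 nM TP-0903, and control A549. A number after the letter P also stands in each label, P15 and P3 for the AXL shRNA and control shRNA cultures and P17 and P4 for the TP-0903 and control cultures. Not given in the sources used here are what that number means, how the control cultures were handled, how long TP-0903 was given and which hairpins were used. The labels call the 2 cultures of a group biological replicates. All cultures were in serum, per the labels, and no group was stated to be synchronised. With bulk RNA, fewer cycling cells and less of a transcript per cell cannot be told apart.

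E2F proteins sit on the promoters of genes for DNA replication, most of them as a pair with a DP protein, and are held in check by the pocket proteins RB1, RBL1 (p107) and RBL2 (p130) until cyclin-dependent kinases phosphorylate the pocket proteins in G1. E2F1, E2F2 and E2F3 are grouped as activators. E2F4 and E2F5 act mainly as repressors with RBL1 or RBL2, and with the MuvB core (LIN9, LIN37, LIN52, LIN54, RBBP4) they form the DREAM complex of resting and arrested cells. E2F6 binds no pocket protein and works with Polycomb proteins, while E2F7 and E2F8 bind DNA without a DP partner and repress E2F1 and its targets late in S phase. In dividing cells MYBL2 takes over the MuvB core, and FOXM1 joins it to drive the genes of G2 and mitosis. FOXM1, MYBL2 and most E2F genes are themselves cell cycle genes, and high FOXM1 is a common feature of lung adenocarcinoma.

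Promoters are printed for 5 members that behaved differently in the results: E2F1, E2F2 and MYBL2, whose transcripts fell under TP-0903, E2F3, which is also an activator and did not pass that test, and E2F7, which rose with AXL shRNA. They run 5′ to 3′ on the gene's own strand from 250 bases before to 50 bases after the transcription start, from RefSeq (GRCh38.p14), where 7 of the 10 members had an entry by symbol. The entries not found were E2F5, E2F8 and FOXM1. Capitals mark matches, on either strand, to the E2F letters TTTCCCGC, TTTGGCGC, TTTCGCGC or TTTGCCGC, to TTTGAA (the cell cycle genes homology region, CHR) and to CCAAT, so a match on the other strand appears as its reverse complement.
E2F1, chr20:33686336-33686635, minus strand: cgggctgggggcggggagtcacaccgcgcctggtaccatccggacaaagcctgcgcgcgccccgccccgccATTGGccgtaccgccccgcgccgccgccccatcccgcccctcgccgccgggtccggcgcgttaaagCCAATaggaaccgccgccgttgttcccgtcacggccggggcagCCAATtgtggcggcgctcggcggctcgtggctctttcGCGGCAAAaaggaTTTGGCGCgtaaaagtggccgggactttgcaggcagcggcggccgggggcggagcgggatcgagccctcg
E2F2, chr1:23531184-23531483, minus strand: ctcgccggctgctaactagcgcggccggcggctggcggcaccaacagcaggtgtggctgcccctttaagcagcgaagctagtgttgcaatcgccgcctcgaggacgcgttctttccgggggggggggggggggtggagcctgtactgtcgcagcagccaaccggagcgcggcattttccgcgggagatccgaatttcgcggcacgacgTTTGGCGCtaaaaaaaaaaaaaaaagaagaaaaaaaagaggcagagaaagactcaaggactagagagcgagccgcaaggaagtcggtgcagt
E2F3, chr6:20401629-20401928, plus strand: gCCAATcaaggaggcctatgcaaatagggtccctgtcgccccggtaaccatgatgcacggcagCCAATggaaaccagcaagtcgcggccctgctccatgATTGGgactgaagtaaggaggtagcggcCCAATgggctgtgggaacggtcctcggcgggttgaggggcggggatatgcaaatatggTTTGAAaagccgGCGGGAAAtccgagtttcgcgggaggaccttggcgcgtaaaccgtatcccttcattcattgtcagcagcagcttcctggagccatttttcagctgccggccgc
E2F7, chr12:77065520-77065819, minus strand: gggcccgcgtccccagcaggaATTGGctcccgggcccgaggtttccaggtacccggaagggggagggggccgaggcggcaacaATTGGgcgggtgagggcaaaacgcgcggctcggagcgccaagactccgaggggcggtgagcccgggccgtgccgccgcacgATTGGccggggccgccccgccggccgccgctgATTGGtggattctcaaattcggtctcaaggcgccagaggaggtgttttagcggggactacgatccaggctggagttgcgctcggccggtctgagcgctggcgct
MYBL2, chr20:43666864-43667163, plus strand: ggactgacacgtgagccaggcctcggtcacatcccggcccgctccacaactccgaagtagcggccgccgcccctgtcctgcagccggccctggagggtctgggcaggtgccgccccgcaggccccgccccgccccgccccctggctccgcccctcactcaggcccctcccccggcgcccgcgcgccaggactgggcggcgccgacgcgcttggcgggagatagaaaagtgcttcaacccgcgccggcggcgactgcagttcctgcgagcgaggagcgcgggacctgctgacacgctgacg

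Counted with the transcription start as position 0, the E2F1 promoter held E2F letters starting at -33 (TTTGCCGC on the other strand) and -20 (TTTGGCGC). The E2F2 promoter held TTTGGCGC at -42, and the E2F3 promoter held TTTCCCGC at -53 on the other strand with TTTGAA at -65. CCAAT matches numbered 3 in the E2F1 promoter, 4 in the E2F3 promoter and 4 in the E2F7 promoter, with 0 in the E2F2 promoter. The MYBL2 promoter held none of the letters searched. No 2 matches overlapped. Of 27305 RefSeq promoters of the same length, 3.33% held E2F letters, 15.4% held TTTGAA and 35.7% held CCAAT. Both TTTGAA and CCAAT stood in 6.08%, as in the E2F3 promoter. E2F letters thus stood in all 3 activator promoters and in none of the other 4 members with an entry (E2F4, E2F6, E2F7 and MYBL2). Only exact matches to the listed letters were searched, so a site spelled in any other way was not counted. A match is a description of letters in this window and does not show binding. Only the first entry of each symbol was used, and the gene values do not separate transcripts from different starts.

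Library totals ran from 30067011 to 44217023 expected counts, and all 10 members passed the filter on low counts that left 17676 genes for testing. In CPM (counts scaled to library size by TMM), AXL, which hairpin and drug both target, read 55.4 (P15) and 63.0 (P3) with AXL shRNA, against 85.1 and 139 with control shRNA. With TP-0903 it read 280 CPM (P17) and 153 CPM (P4), against 216 and 105 CPM in control. The edgeR log2 fold change of AXL was -0.92 with AXL shRNA (adjusted p = 0.1198, and 8.58e-04 with the P number as a replicate block) and 0.43 with TP-0903 (adjusted p = 0.5435, and 0.0354 with the block). All 7 markers of the epithelial line were present in every group, with summed CPM of 26600 to 31100 with AXL shRNA, 9560 to 10300 with control shRNA, 9040 to 13700 with TP-0903 and 9100 to 13100 in control. Of the markers of other cell types, 5 leukocyte genes summed to 12 to 28.5 CPM over the groups, led by CD68, and 3 endothelial genes to 3.15 to 9.87 CPM with AXL shRNA, against 0.329 to 2.74 CPM with control shRNA, 0.644 to 1.79 CPM with TP-0903 and 0.892 to 1.73 CPM in control. The 6 fibroblast genes summed to 56.4 to 108 CPM with AXL shRNA, against 14.4 to 16.7 CPM with control shRNA, 11.8 to 18.5 CPM with TP-0903 and 21.8 to 22.2 CPM in control. With AXL shRNA (P15 and P3), COL3A1 read 29.9 and 65.4 CPM, COL1A1 18.0 and 36.7 CPM and LUM 8.33 and 5.58 CPM. COL1A2, DCN and PDGFRB were at most 0.243 CPM there. Of the endothelial genes, CDH5 read 9.57 and 2.98 CPM there, with PECAM1 and VWF at most 0.211 CPM. The part of the higher epithelial, fibroblast and endothelial sums in the AXL shRNA results was not tested.

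**Figure D1:**
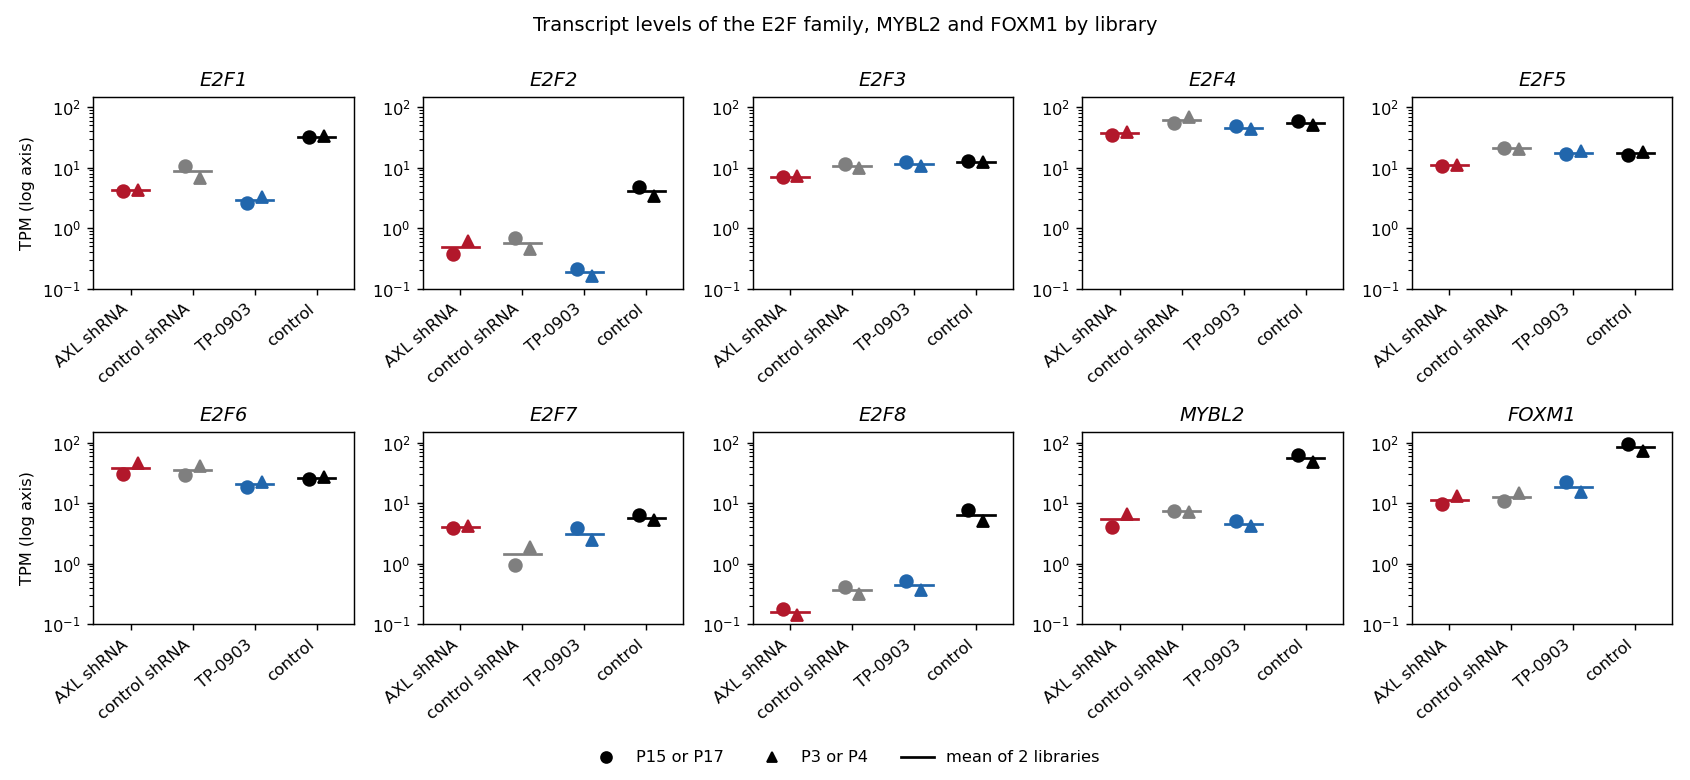
TPM of each member (log axis) in every library, with AXL shRNA, control shRNA, TP-0903 and control from left to right, circles for P15 or P17, triangles for P3 or P4 and a bar for the mean of 2 libraries. E2F1, E2F2, E2F7, E2F8, MYBL2 and FOXM1 stand highest in both control libraries, where MYBL2 reads 61.6 and 48.6 TPM, while E2F6 runs from 18.3 to 45.5 TPM over all libraries.

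Levels between genes are compared in TPM, a length-corrected share of all transcripts, which the authors' RSEM run corrected for length. In control cells FOXM1 led at 83.6 ± 15.3 TPM (SD, n = 2), followed by E2F4 at 55.3 ± 6.90 TPM and MYBL2 at 55.1 ± 9.19 TPM, whose ranges overlapped. Below them came E2F1 at 32.6 TPM, E2F6 at 26.1 TPM, E2F5 at 17.2 TPM and E2F3 at 12.7 TPM, each with a range clear of the next. E2F8 (6.38 TPM) and E2F7 (5.77 TPM) overlapped, and E2F2 was lowest at 4.06 TPM.

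In the other 3 groups the order was led by E2F4 or E2F6 and no longer by FOXM1. With TP-0903, E2F4 stood at 46.2 TPM, clear of E2F6 at 20.5 TPM, FOXM1 at 18.8 TPM and E2F5 at 17.6 TPM, whose neighbouring ranges overlapped. MYBL2 was at 4.59 TPM there, E2F7 at 3.12 TPM and E2F1 at 2.95 TPM, with E2F8 (0.440 TPM) and E2F2 (0.185 TPM) last. With AXL shRNA, E2F6 (37.9 ± 10.7 TPM) and E2F4 (37.1 ± 2.88 TPM) overlapped at the top, while with control shRNA E2F4 (62.5 ± 10.6 TPM) stood clear of E2F6 (34.98 ± 7.79 TPM). E2F8 was lowest in both hairpin groups, at 0.160 TPM with AXL shRNA and 0.360 TPM with control shRNA.

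TP-0903 against control asks how the family stood in cells given the inhibitor. Activators E2F1 and E2F2, the atypical repressor E2F8, MYBL2 and FOXM1 all fell, with log2 fold changes from -4.40 to -2.14, and no member rose. The activator E2F3 and the repressors E2F4, E2F5, E2F6 and E2F7 did not pass the test. These 5 of 10 members compare with 11.3% of all tested genes called in either direction, 4.90% higher and 6.35% lower, at an adjusted p under 0.05 by edgeR's quasi-likelihood test with Benjamini-Hochberg adjustment over all genes. The members' median log2 fold change was -1.45, against -0.02 over all genes. Of all genes called, 43.5% were higher, against 33.3% with library totals as the only scaling.

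Among the activators, E2F1, which drives S-phase entry genes, had 2.61 TPM (P17) and 3.29 TPM (P4) with TP-0903, against 32.2 and 33.0 TPM in control. Each TP-0903 library kept 8.24% and 10.2% of the CPM of its same-numbered control library, and the edgeR log2 fold change was -3.44 (SE 0.21, adjusted p = 4.70e-04). E2F2, an activator best known from proliferating blood cells, had 0.21 and 0.16 TPM with TP-0903, against 4.72 and 3.40 TPM in control. That is 24 and 20 expected counts against 599 and 483, and the log2 fold change was -4.40 (SE 0.36, adjusted p = 7.72e-04), the largest fall of the family in this fit. On log2(TPM + 1), which understates changes of low genes, E2F2 was at -2.08, against -3.32 for MYBL2. E2F3, the activator that resting cells also hold, read 12.5 and 10.9 TPM with TP-0903 and 12.9 and 12.5 TPM in control, with overlapping groups. Its log2 fold change was -0.08 (SE 0.11, adjusted p = 0.6881).

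MYBL2, the MuvB partner of S phase, had 5.06 and 4.12 TPM with TP-0903, against 61.6 and 48.6 TPM in control. Its log2 fold change was -3.56 (SE 0.26, adjusted p = 6.18e-04), with 8.34% and 8.71% of the CPM left. FOXM1, the driver of mitotic genes, had 22.2 and 15.5 TPM with TP-0903, against 94.4 and 72.8 TPM in control. Its log2 fold change was -2.14 (SE 0.26, adjusted p = 0.003274), so 24.7% and 20.2% of the CPM was left, a larger share than for E2F1, E2F2, E2F8 or MYBL2. TP-0903 and control libraries did not overlap for either gene, nor for E2F4 and E2F7, which did not pass the test. The share of all genes without overlap was not computed.

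Of the repressors, only E2F8 passed. It had 0.51 and 0.37 TPM with TP-0903, against 7.64 and 5.13 TPM in control, which is 38 and 29 expected counts against 618 and 461. Its log2 fold change was -3.80 (SE 0.32, adjusted p = 7.85e-04), and -2.34 on log2(TPM + 1). E2F7, its closest relative, read 3.84 and 2.41 TPM with TP-0903, against 6.34 and 5.20 TPM in control, with no overlap. E2F7 gave -0.77 on the log2 scale (SE 0.34, adjusted p = 0.1944), while a fit with the replicate block gave -0.79 (adjusted p = 0.02238), which passes.

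The repressors that bind RBL1 and RBL2, and E2F6, did not pass the test with TP-0903. E2F4, the most abundant E2F transcript in control cells, read 48.5 and 43.9 TPM with TP-0903 and 60.2 and 50.4 TPM in control (log2 fold change -0.29, SE 0.15, adjusted p = 0.273). E2F5 read 16.6 and 18.7 TPM with TP-0903 and 16.4 and 18.0 TPM in control (0.07, SE 0.13, adjusted p = 0.7884). The Polycomb partner E2F6 read 18.3 and 22.6 TPM with TP-0903 and 25.0 and 27.1 TPM in control (-0.28, SE 0.27, adjusted p = 0.544).

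**Figure D2:**
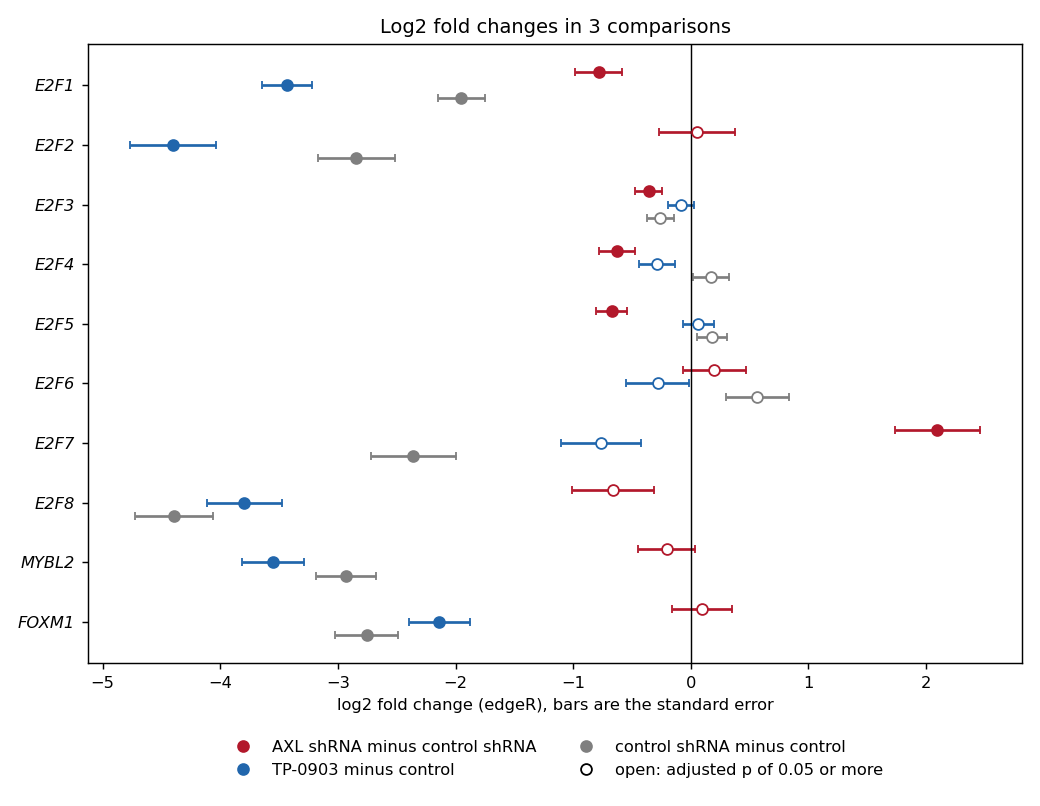
Log2 fold change (edgeR, x axis) of each member with AXL shRNA against control shRNA (red), TP-0903 against control (blue) and control shRNA against control (grey), with bars for the standard error and open points for an adjusted p of 0.05 or more. With TP-0903 the filled points lie between -4.40 and -2.14, and with AXL shRNA the filled points are E2F7 at 2.10 and 4 members between -0.78 and -0.36.

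AXL shRNA against control shRNA asks how the family stood in cells with the AXL hairpin. E2F7 rose, to 4.28 times its level with control shRNA, while E2F1, E2F3, E2F4 and E2F5 fell, with log2 fold changes from -0.78 to -0.36. E2F2, E2F6, E2F8, MYBL2 and FOXM1 did not pass the test. These 5 of 10 members stand against a background of 37.5% of all genes called, 18.5% higher and 19.0% lower, and the members' median log2 fold change was -0.28, against -0.01 over all genes. Of all genes called, 49.4% were higher, against 32.8% with library totals as the only scaling and 31.3% on log2(TPM + 1).

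E2F7, the repressor that shuts down E2F1 targets, had 3.89 TPM (P15) and 4.21 TPM (P3) with AXL shRNA, against 0.95 and 1.91 TPM with control shRNA. In expected counts these are 563 and 734 against 88 and 181, and the log2 fold change was 2.10 (SE 0.36, adjusted p = 0.004537). The effective length that RSEM gave E2F7 was 5210 and 5123 bases with AXL shRNA, against 4240 and 3878 bases with control shRNA, and with effective lengths as offsets the log2 fold change was 1.69, while on log2(TPM + 1) it was 1.08. Without the control shRNA P15 library it was 1.67, and without the P3 library 2.68. Its relative E2F8 was at the edge of detection, with 16 and 15 expected counts (0.18 and 0.14 TPM) with AXL shRNA, against 20 and 24 counts (0.41 and 0.31 TPM) with control shRNA. E2F8 gave a log2 fold change of -0.66 (SE 0.35, adjusted p = 0.1739), so E2F7 and E2F8 stood on opposite sides of 0 here and only E2F7 passed.

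E2F5 and E2F4, the DREAM repressors, were lower in both AXL shRNA libraries. E2F5 had 10.8 and 11.1 TPM with AXL shRNA, against 21.0 and 20.8 TPM with control shRNA (log2 fold change -0.67, SE 0.13, adjusted p = 0.00693). E2F4 had 35.1 and 39.1 TPM with AXL shRNA, against 55.0 and 70.0 TPM with control shRNA (-0.63, SE 0.16, adjusted p = 0.01765). The E2F4 call was lost without either AXL shRNA library or without the control shRNA P3 library, with adjusted p up to 0.08596. E2F6 read 30.4 and 45.5 TPM with AXL shRNA and 29.5 and 40.5 TPM with control shRNA, with libraries of the same P number close together (0.20, SE 0.27, adjusted p = 0.5851).

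Of the activators, E2F1 had 4.17 and 4.23 TPM with AXL shRNA, against 10.6 and 6.79 TPM with control shRNA. Its log2 fold change was -0.78 (SE 0.20, adjusted p = 0.01905), and the call was lost in the fit of these 4 libraries alone, without either AXL shRNA library and without the control shRNA P15 library (adjusted p up to 0.08686). E2F3 had 6.95 and 7.31 TPM with AXL shRNA, against 11.5 and 10.1 TPM with control shRNA (-0.36, SE 0.11, adjusted p = 0.04411). Its call lay close to the threshold and was lost under 14 of 20 alternatives, among them all 8 fits without a library, with adjusted p up to 0.1446, and its value was -0.56 with library totals and -0.59 on log2(TPM + 0.1). E2F2 read 0.38 and 0.61 TPM with AXL shRNA and 0.70 and 0.45 TPM with control shRNA, with overlapping groups (0.05, SE 0.32, adjusted p = 0.9146).

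MYBL2 and FOXM1 did not pass the test between the hairpin groups. MYBL2 read 4.03 and 6.71 TPM with AXL shRNA and 7.50 and 7.19 TPM with control shRNA (log2 fold change -0.21, SE 0.24, adjusted p = 0.5372). FOXM1 read 9.77 and 12.99 TPM with AXL shRNA and 10.8 and 14.6 TPM with control shRNA (0.10, SE 0.25, adjusted p = 0.7897), and its sign turned to -0.10 with library totals as the only scaling. That scaling placed the median of all genes at -0.21, against -0.01 with TMM.

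The difference between both effects was itself tested, as the TP-0903 effect minus the AXL shRNA effect. The drug effect was the more negative for E2F1, E2F2, E2F7, E2F8, MYBL2 and FOXM1, and the more positive for E2F5. Of the 10 members 7 thus differed, against 20.6% of all genes, with 9.82% higher and 10.8% lower. Of all genes called, 47.6% were higher, against 61% with library totals and 63.5% on log2(TPM + 1). The log2 differences were -4.45 (SE 0.48, adjusted p = 0.001841) for E2F2, -3.35 (SE 0.35, adjusted p = 0.001703) for MYBL2 and -3.13 (SE 0.46, adjusted p = 0.005062) for E2F8. For E2F7, which rose with the hairpin, the difference was -2.86 (SE 0.50, adjusted p = 0.008797). On log2(TPM + 1), E2F2 gave -2.01 and E2F7 -1.82. For E2F1 the edgeR difference was -2.65 (SE 0.28, adjusted p = 0.001806) and for FOXM1 -2.23 (SE 0.36, adjusted p = 0.006682). E2F5 gave 0.74 (SE 0.18, adjusted p = 0.02941), a call that no fit without a library kept (adjusted p up to 0.1016). E2F3 (0.27), E2F4 (0.34) and E2F6 (-0.48) did not pass, and E2F6 passed with the replicate block (-0.51, adjusted p = 0.03278). This difference rests on both reference groups, which themselves differed for E2F1, E2F2, E2F7, E2F8, MYBL2 and FOXM1.

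Control shRNA against control sets the references beside each other. E2F1, E2F2, E2F7, E2F8, MYBL2 and FOXM1 all fell with control shRNA, with log2 fold changes from -4.39 to -1.95, and no member rose. These 6 of 10 members compare with 9.15% of all genes called, 3.06% higher and 6.09% lower. Hairpin carriage and P number both differ between these groups and cannot be told apart. The fold changes share the control libraries with TP-0903 against control and the control shRNA libraries with AXL shRNA against control shRNA, so they are set side by side and not compared by a test.

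The fall of E2F8 was the largest of these in the edgeR fit, with 0.41 and 0.31 TPM with control shRNA, against 7.64 and 5.13 TPM in control (log2 fold change -4.39, SE 0.33, adjusted p = 7.33e-04). MYBL2 gave -2.93 (SE 0.25, adjusted p = 0.001037), E2F2 -2.84 (SE 0.33, adjusted p = 0.003304) and FOXM1 -2.76 (SE 0.27, adjusted p = 0.001606). E2F7 gave -2.36 (SE 0.36, adjusted p = 0.01036), a call lost without the control P17 library (adjusted p = 0.07808), and E2F1 gave -1.95 (SE 0.20, adjusted p = 0.001917). On log2(TPM + 1), E2F8 was at -2.42, E2F2 at -1.68 and E2F7 at -1.50, against -2.74 for MYBL2. In TPM, E2F1 had 10.6 and 6.79 with control shRNA against 32.2 and 33.0 in control, and E2F7 had 0.95 and 1.91 with control shRNA against 6.34 and 5.20 in control. E2F3 (-0.26, adjusted p = 0.1904), E2F4 (0.17, adjusted p = 0.5196), E2F5 (0.18, adjusted p = 0.4101) and E2F6 (0.57, adjusted p = 0.2213) did not pass.

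AXL shRNA against control gave 7 of 10 members lower and none higher, against 36.8% of all genes called, 17.3% as higher and 19.5% as lower. Of all genes called, 47.1% were higher, against 34.5% with library totals and 30.3% on log2(TPM + 1). The log2 fold change was -5.05 for E2F8 (SE 0.34, adjusted p = 2.86e-04), -3.14 for MYBL2, -2.79 for E2F2, -2.73 for E2F1 and -2.66 for FOXM1. It was -0.62 for E2F3 and -0.49 for E2F5. E2F7 did not pass (-0.26, SE 0.34, adjusted p = 0.5762), with 3.89 and 4.21 TPM with AXL shRNA against 6.34 and 5.20 TPM in control. E2F7 with AXL shRNA therefore lay between both references, above both control shRNA libraries and below both control libraries, the second gap without passing the test. Over all 4 groups every one of the 10 members differed, against 49.2% of all genes, with adjusted p from 2.64e-04 for E2F8 to 0.0396 for E2F6. The count of members was lower without either AXL shRNA library, and the share of all genes in those fits is not given here.

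The balance of activators against repressors was read within each library from summed TPM, as a description with no test. Activators E2F1, E2F2 and E2F3 made up 14.9% and 14.0% of all E2F transcripts with TP-0903, against 30.1% and 31.6% in control. They made up 12.5% and 10.8% with AXL shRNA, against 17.6% and 11.5% with control shRNA. The log2 ratio of activators to repressors was -2.52 and -2.62 with TP-0903, against -1.21 and -1.12 in control, a difference of group means of -1.40, or -0.92 from CPM sums. It was -2.80 and -3.04 with AXL shRNA, against -2.23 and -2.95 with control shRNA, so these groups overlapped, and the difference of -0.34 turned to 0.024 without the control shRNA P15 library. Both control libraries thus stood apart from the other 6, and control shRNA minus control gave -1.42, or -0.61 as a mean of log2(TPM + 0.1).

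**Figure D3:**
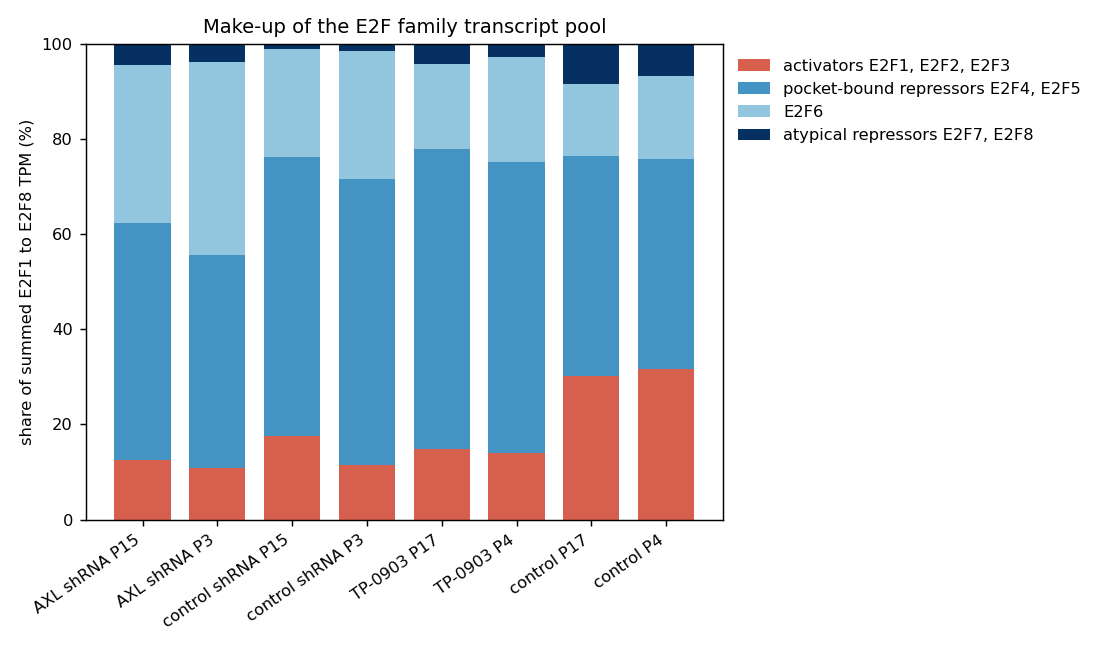
Share of summed E2F1 to E2F8 TPM (%, stacked to 100) taken by activators (red), the RBL1 and RBL2 partners E2F4 and E2F5 (mid blue), E2F6 (light blue) and the atypical E2F7 and E2F8 (dark blue) in each library. Activators take 30.1% and 31.6% in control and at most 17.6% in the other 6 libraries.

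Within the activators the leading gene changed. E2F1 held 17.03% and 22.96% of activator TPM with TP-0903, against 64.7% and 67.6% in control, and E2F3 held 81.6% and 75.9% with TP-0903, against 25.9% and 25.5% in control. In the hairpin groups E2F3 held 60.4% and 60.2% with AXL shRNA, against 50.6% and 58.2% with control shRNA. E2F3 was thus the larger activator transcript in all 6 libraries outside control, and E2F1 in both control libraries.

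The shares of the repressors in all E2F transcripts also differed between groups. Such a share also moves with the activator sum, and E2F4, E2F5 and E2F6 did not pass the test with TP-0903. E2F4 and E2F5 took 63.1% and 61.2% of all E2F transcripts with TP-0903, against 46.3% and 44.2% in control, and 49.9% and 44.7% with AXL shRNA, against 58.6% and 60.2% with control shRNA. E2F6 took 33.1% and 40.6% with AXL shRNA, against 22.8% and 26.9% with control shRNA. The atypical pair took 4.22% and 2.72% with TP-0903, against 8.45% and 6.68% in control, and 4.44% and 3.88% with AXL shRNA, against 1.05% and 1.47% with control shRNA.

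The atypical pair was mostly E2F7 in the hairpin and TP-0903 groups and near parity in control. The TPM ratio of E2F7 to E2F8 was 21.6 and 30.1 with AXL shRNA, against 2.32 and 6.16 with control shRNA, and 7.53 and 6.51 with TP-0903, against 0.830 and 1.01 in control. E2F8 rests on 15 to 24 expected counts in the hairpin libraries. Its effective length was 2269 bases in control shRNA P15, against 3154 bases in control shRNA P3, so the hairpin ratios are uncertain to that extent. The ratio of E2F1 to E2F3 was 0.209 and 0.302 with TP-0903, against 2.5 and 2.65 in control. MYBL2 stood below FOXM1 in every library, at a TPM ratio of 0.228 and 0.266 with TP-0903, against 0.652 and 0.667 in control, and 0.412 and 0.517 with AXL shRNA, against 0.694 and 0.494 with control shRNA.

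The partners of the family were read from lists of pathway genes. Of the DP proteins, which pair with E2F1 to E2F6, TFDP1 fell with TP-0903 (log2 fold change -0.74, adjusted p = 0.02767) and TFDP2 fell with AXL shRNA (-0.61, adjusted p = 0.01304), while TFDP3 had no counts. The TFDP1 call was lost without the control P17 library or either TP-0903 library (adjusted p up to 0.1297), and the TFDP2 call without the control shRNA P15 or AXL shRNA P3 library (up to 0.0712). Of the 3 pocket proteins RBL1, itself an E2F target, fell with TP-0903 to 7.96 and 8.08 CPM, against 54.3 and 43.0 CPM in control (-2.60, SE 0.16, adjusted p = 4.70e-04). RB1 (-0.10) and RBL2 (0.04) did not pass there. With AXL shRNA RBL2 fell (-0.44, adjusted p = 0.01811), a call lost without either AXL shRNA library or the control shRNA P15 library (adjusted p up to 0.08489), and RB1 (0.15) and RBL1 (-0.04) did not pass.

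Of the 5 MuvB core genes 3 fell with TP-0903, against 6.35% of all genes, and none rose. The median log2 fold change was -0.98, against -0.02 over all genes. LIN9, the scaffold that MYBL2 binds, had 5.43 and 6.71 CPM with TP-0903, against 22.3 and 18.9 CPM in control (-1.76, SE 0.18, adjusted p = 0.001632). LIN52 (-1.20) and LIN54, the DNA-binding subunit (-0.98), also fell, calls lost without the control P17 or TP-0903 P17 library (adjusted p up to 0.08354). LIN37 did not pass with TP-0903 (0.12, adjusted p = 0.7087) or with AXL shRNA (0.39, adjusted p = 0.1126). With AXL shRNA, where 37.5% of all genes were called, the 1 MuvB gene that passed was RBBP4 (-0.46, adjusted p = 0.01252). That call was lost without the control shRNA P15 or AXL shRNA P3 library. The list had 3 calls with the replicate block, which called 9138 of 17676 genes there. Of the MYB relatives, MYB was at most 0.757 CPM in any library. It rose with AXL shRNA (2.58, adjusted p = 0.02027) and fell with TP-0903 (-3.05, adjusted p = 0.03913), calls lost in some fits without a library. Its difference of effects was -5.64 (adjusted p = 0.008965). MYBL1 fell with control shRNA against control (-2.94, adjusted p = 0.01822), a call lost without either control shRNA library or the control P17 library.

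Upstream of the pocket proteins, CCND1 and CDKN1A rose with AXL shRNA and with TP-0903. CCND1, the D-type cyclin partner of CDK4 and CDK6, had 1510 and 1340 CPM with AXL shRNA, against 456 and 557 CPM with control shRNA (1.49, SE 0.16, adjusted p = 9.48e-04), and 842 and 857 CPM with TP-0903, against 367 and 456 CPM in control (1.05, SE 0.16, adjusted p = 0.008476). CDKN1A (p21), an inhibitor of cyclin-dependent kinases, had 979 and 830 CPM with AXL shRNA, against 309 and 440 CPM with control shRNA (1.27, SE 0.25, adjusted p = 0.007648). With TP-0903 it had 636 and 602 CPM, against 169 and 268 CPM in control (1.5, SE 0.25, adjusted p = 0.01154). Both TP-0903 calls were lost without the control P17 or TP-0903 P17 library (adjusted p up to 0.07303). CDKN2C had 7.62 and 4.34 CPM with TP-0903, against 32.7 and 17.7 CPM in control, and did not pass (adjusted p = 0.09479), and with AXL shRNA its adjusted p was 0.1632. CDKN1C, at most 1.62 CPM in any library, did not pass with AXL shRNA (adjusted p = 0.09756) or TP-0903 (0.4152). CDKN2A and CDKN2B, which A549 is known to have lost, had no counts in any library.

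Of the 10 G1 cyclins, kinases and CDC25A, 5 rose and 1 (CDK4, lost without the AXL shRNA P15 or control shRNA P3 library) fell with AXL shRNA, against 18.5% of all genes higher and 19.0% lower, with a median of 1.13. With TP-0903, 1 of the 10 (CCND1) rose and 4 fell, against 4.90% and 6.35% of all genes, with a median of -1.16. CDC25A, the phosphatase that activates CDK2, had 25.6 and 37.3 CPM with AXL shRNA, against 3.14 and 2.57 CPM with control shRNA (3.46, SE 0.28, adjusted p = 4.13e-04). It had 5.28 and 4.98 CPM with TP-0903, against 23.0 and 15.8 CPM in control (-1.92, SE 0.26, adjusted p = 0.005008). CCNA2, the cyclin of S phase whose kinase ends E2F1 binding, had 10.2 and 6.80 CPM with TP-0903, against 94.5 and 55.9 CPM in control (-3.14, SE 0.30, adjusted p = 0.001214). CDKN1B (p27) fell with TP-0903 (-1.19, adjusted p = 0.007475), a call lost without the control P17 or TP-0903 P17 library. CDKN2D rose with AXL shRNA (1.41, adjusted p = 0.02538), a call lost without either AXL shRNA library or the control shRNA P3 library.

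Of 3 genes for turnover of E2F proteins and of p27 (SKP2, CCNF and FZR1), 1 rose with AXL shRNA and 1 fell with TP-0903. Of all genes 18.5% were higher with AXL shRNA and 6.35% were lower with TP-0903. SKP2, the ubiquitin ligase subunit that degrades p27 and E2F1, had 49.1 and 55.0 CPM with AXL shRNA, against 7.66 and 6.40 CPM with control shRNA (2.89, SE 0.30, adjusted p = 8.00e-04). CCNF, which marks the activating E2F proteins for degradation, fell with TP-0903 (-1.97, SE 0.28, adjusted p = 0.006093). FZR1, an activator of the anaphase-promoting complex, passed in neither comparison (adjusted p = 0.1461 with AXL shRNA and 0.4808 with TP-0903). Of 12 partners in the Polycomb complex of E2F6, 4 rose and 1 fell with AXL shRNA, a share near the 37.5% of all genes called there, with WDR5 at 0.79, HDAC2 at 0.60 and RING1 at -0.48. With TP-0903, 3 of the 12 fell, against 6.35% of all genes, with CBX3 at -0.64. The count with TP-0903 was 0 or 1 in 7 of 8 fits without a library, and the RING1 call was lost in 3 of them.

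The genes that E2F, MYBL2 and FOXM1 are known to drive were lower with TP-0903 almost throughout. Of 43 G1/S genes 41 fell and none rose, against 6.35% of all genes lower, with a median log2 fold change of -2.13. The exceptions were CCNE1 (-0.47, adjusted p = 0.2433) and TYMS (-0.59, adjusted p = 0.06476), which did not pass. MCM5, part of the replicative helicase, had 17.7 and 20 CPM with TP-0903, against 145 and 126 CPM in control (-2.84, SE 0.14, adjusted p = 4.70e-04). CDC45, a helicase partner, stood at -3.70. Of 40 G2/M genes 39 fell, with a median of -2.66 and CDC25B (-0.66, adjusted p = 0.1503) as the exception. CDK1, the mitotic kinase, had 16.2 and 16.3 CPM with TP-0903, against 149 and 105 CPM in control (-2.97, SE 0.19, adjusted p = 4.70e-04), and HMMR, a spindle protein, stood at -2.98.

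With AXL shRNA the same target lists were in part higher, while no activator E2F, MYBL2 or FOXM1 transcript rose. Of 43 G1/S genes 21 rose and 2 fell (median 0.53, against -0.01 over all genes, of which 18.5% rose and 19.0% fell), with CDC25A and MCM5 smallest in p. MCM5 had 53.2 and 62.6 CPM with AXL shRNA, against 25.0 and 22.8 CPM with control shRNA (1.28, SE 0.13, adjusted p = 8.47e-04). BRCA1, the repair gene, fell (-1.46, SE 0.19, adjusted p = 0.001671), as did RFC4, whose call was lost in 7 of 8 fits without a library. Of 40 G2/M genes 15 rose and 1 fell (median 0.56), so the share called in either direction was near the 37.5% of all genes. The gene that fell was ECT2 (-0.46), a call lost in 3 of 8 fits without a library (adjusted p up to 0.06549). CCNB1, the cyclin of mitosis, rose by 1.13 on the log2 scale (adjusted p = 0.005281). AURKA, a spindle kinase, had 44.4 and 49.7 CPM with AXL shRNA, against 16.0 and 19.3 CPM with control shRNA (1.41, SE 0.16, adjusted p = 9.89e-04). These counts moved with single libraries: G1/S calls numbered 10 to 27 over 20 alternatives and G2/M calls 5 to 24, and G1/S calls were 10 without the AXL shRNA P3 or the control shRNA P15 library and 12 without the control shRNA P3 library. G2/M calls were 6 without the control shRNA P15 library, 8 without P3 and 5 without the AXL shRNA P3 library.

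Set against control cells, both hairpin groups stayed low on the cell cycle lists. All 43 G1/S genes fell with control shRNA against control (median -2.04), as did 39 of 40 G2/M genes (median -3.14), and 37 and 39 fell with AXL shRNA against control (medians -1.58 and -2.63). Of all genes 6.09% were lower with control shRNA against control and 19.5% with AXL shRNA against control. The median G1/S gene stood, relative to the control mean, at -1.62 and -1.47 with AXL shRNA, -1.99 and -2.05 with control shRNA, and -2.18 and -2.14 with TP-0903, on the log2 CPM scale. The median G2/M gene stood at -2.78 and -2.52 with AXL shRNA, -3.21 and -2.97 with control shRNA, and -2.56 and -2.75 with TP-0903.

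**Figure D4:**
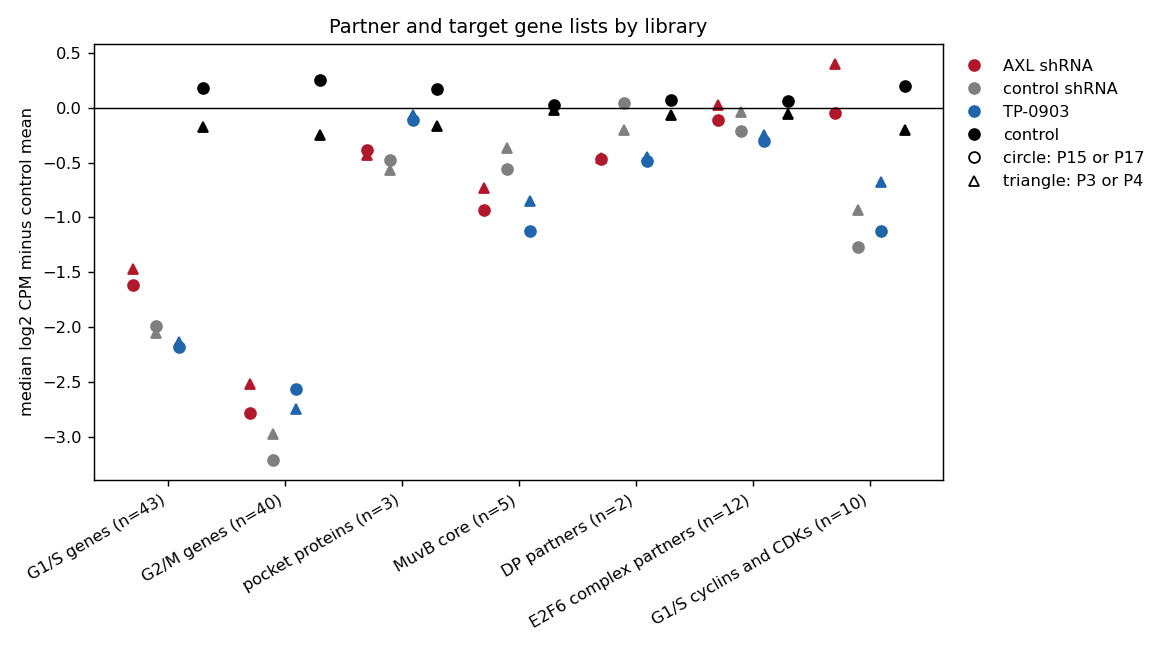
Median log2 CPM of each list relative to the mean of the control libraries (y axis), per library, with AXL shRNA (red), control shRNA (grey), TP-0903 (blue) and control (black), circles for P15 or P17 and triangles for P3 or P4, and n for tested genes. G1/S and G2/M lists lie between -3.21 and -1.47 in all 6 libraries outside control.

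The genes whose pattern over the 8 libraries was most like that of a member were found as the smallest root mean square difference of centred log2 CPM among 11301 genes. For FOXM1 these were CDCA3 (0.131), TROAP (0.187) and CEP55 (0.221), against a median of 1.17 over the genes searched. For MYBL2 they were CLSPN (0.203), BLM (0.208) and SKA1 (0.211), against a median of 1.45, and for E2F1 PRIM1 (0.191), WDR76 (0.232) and DSN1 (0.261), against 1.32. For E2F7 they were FABP5 (0.362), MPP1 (0.395) and CTSV (0.424), against 1.04. The nearest other member was MYBL2 for FOXM1 (0.553), E2F2 for MYBL2 (0.440), MYBL2 for E2F1 (0.469) and FOXM1 for E2F7 (0.961). These distances cannot be set against those above, which are the smallest over 11301 genes and not over a few members. By distance to the nearest member E2F7 was the least like the rest of these 4.

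Some members share their place with other genes. Positions are from GENCODE 29 on GRCh38, where FOXM1 (ENSG00000111206, chr12:2857681-2877155, minus strand) overlaps RHNO1 by 898 bases and ITFG2 by 2111 bases on the opposite strand, with 273 to 2125 and 255 to 693 expected counts. E2F5 (ENSG00000133740, plus strand) overlaps C8orf59 by 3083 bases on the opposite strand, with 876 to 1263 counts. The library kit is not stated to keep strand, so reads in these overlaps cannot be told apart and the values of FOXM1 and E2F5 are uncertain to that extent. Pseudogene copies of E2F3, E2F4 and E2F6 held at most 14.2 counts in any library.

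E2F1 (ENSG00000101412, chr20:33675683-33686404, minus strand) and MYBL2 (ENSG00000101057, chr20:43667019-43716496, plus strand) lie on chromosome 20. E2F7 (ENSG00000165891, chr12:77021247-77065580, minus strand) shares chromosome 12 with FOXM1. E2F2 (ENSG00000007968, chr1:23506430-23531220, minus strand), E2F3 (ENSG00000112242, chr6:20401906-20493715, plus strand), E2F4 (ENSG00000205250, chr16:67192169-67198918, plus strand), E2F6 (ENSG00000169016, chr2:11444375-11466177, minus strand) and E2F8 (ENSG00000129173, chr11:19224063-19241620, minus strand) lie on a chromosome of their own. No member overlaps another.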

How the data were processed

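RNA sequencing of 8 A549 libraries was used as deposited, 1 gene table per library. Per the submitters' processing notes, reads were aligned to GRCh38 with STAR (2.5.3a) and quantified with RSEM. Its version and annotation were not given in the sources used here. Expected counts, as deposited, are RSEM estimates of reads for each gene with no normalization by the authors, and the deposited TPM carry RSEM's scaling for effective length and depth. Column kit RNA and Nextera XT libraries are named per the labels, with no strand stated.

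Expected counts were rounded, filtered with filterByExpr and scaled by TMM. All 8 libraries entered 1 quasi-likelihood fit in edgeR (4.0.16, R 4.3.3) with 1 term per group, contrasts were two-sided, and p was adjusted by Benjamini-Hochberg over 17676 genes, with a threshold of 0.05. SE is the log2 fold change divided by the square root of F. The biological coefficient of variation was 21.5%, and within a group 50.7% to 56.9% of genes with at least 20 counts lay beyond counting error (5% level). Members and gene lists were chosen with earlier results of these data known. Members are always named. Genes named from a list come from the 2 with the smallest p per direction and comparison, or are a DP, pocket, MuvB, MYB or CDK inhibitor gene. TYMS, CCNE1, CDC25B and CDK4 are named besides as the exceptions to counts, chosen after their values were seen, as is FZR1 as the remainder of a list of 3. Some of the listed genes are not reported here. Likeness used log2 CPM with a pseudocount of 2 and genes of at least 5 CPM.

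P numbers were checked as pairs: deviations from group means correlated across genes at 0.444 and 0.450 for groups that share numbers, against 0.171 to 0.309 for groups that do not, so they were taken to pair the libraries, from the data and not from the labels. The main fit leaves this pairing out, since the labels do not say what the number is. Only the replicate block takes it in. Alternatives covered scaling, the filter, DESeq2 (1.42.0), limma-voom and limma (3.58.1) on log2 TPM with pseudocounts of 1 and 0.1, effective lengths, the replicate block, fewer groups and each library left out. The script was tested on simulated data.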

Additional observations from a re-analysis of the deposited data

Results flagged for a closer look

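The TP-0903 effect and the AXL shRNA effect differed, by the edgeR test of the difference itself (2 libraries per group, adjusted over all genes), for 7 members. Of all genes 20.6% differed. The log2 differences, TP-0903 effect minus AXL shRNA effect, were -4.45 for E2F2, -3.35 for MYBL2, -3.13 for E2F8, -2.86 for E2F7, -2.65 for E2F1 and -2.23 for FOXM1. E2F5 gave 0.74. E2F7 was the only member that passed on the higher side with AXL shRNA (2.10), and with TP-0903 its log2 fold change was -0.77, which did not pass.

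Each effect was measured against its own reference, and the references differed for all of these members but E2F5: control shRNA minus control was -4.39 for E2F8, -2.93 for MYBL2, -2.84 for E2F2, -2.76 for FOXM1, -2.36 for E2F7 and -1.95 for E2F1, against 0.18 for E2F5, which did not pass. The part of this gap between references in the difference of effects was not tested. In TPM the TP-0903 and AXL shRNA groups themselves held 2.95 and 4.20 of E2F1, 4.59 and 5.37 of MYBL2, 3.12 and 4.05 of E2F7, 18.8 and 11.4 of FOXM1, 0.185 and 0.495 of E2F2, and 0.440 and 0.160 of E2F8 (means of 2 libraries).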

How the results depend on the processing

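Single member calls were followed over 4 comparisons: AXL shRNA against control shRNA, TP-0903 against control, the difference of effects, and control shRNA against control. Of these 23 calls, 18 passed under every alternative run and none changed sign. The member calls of AXL shRNA against control were not followed in this way. Members called with AXL shRNA against control shRNA numbered 5, but 3 with only the groups compared and 2 to 4 with a library left out. With TP-0903 against control the count was 5, and 3 with a filter of 5 CPM, which removes E2F2 and E2F8. With the replicate block the counts were 5 for AXL shRNA, 6 for TP-0903 (E2F7 added) and 8 for the difference of effects (E2F6 added), and no other member call changed. Of all 17676 genes the block fit called 9138, 4647 and 6530 in these comparisons, against 6627, 1989 and 3645 in the main fit. Control shRNA against control has no paired fit, since these groups share no P number. Members that differed among the 4 groups numbered 6 to 10 with a library left out. The activator to repressor log2 ratio, AXL shRNA minus control shRNA, ran from -0.69 to 0.024 with a library left out. For TP-0903 minus control it was -0.92 from CPM sums and -1.32 without E2F4, and for control shRNA minus control -0.61 as a mean of log2(TPM + 0.1). The cause was not tested.

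Apart from AXL shRNA against control, which was not followed by member, signs that turned belonged to values that did not pass. With AXL shRNA, E2F2 was -0.15 with library totals, -0.075 on log2(TPM + 1), -0.18 on log2(TPM + 0.1) and -0.32 to 0.33 with a library left out. FOXM1 was -0.10, -0.14 and -0.15 under the same settings and -0.12 to 0.29 with a library left out. With a library left out, E2F6 ran from -0.11 to 0.56 and MYBL2 from -0.61 to 0.099 with AXL shRNA, E2F3 from -0.18 to 0.031 and E2F5 from -0.008 to 0.15 with TP-0903, and E2F4 from -0.054 to 0.38 with control shRNA against control. Without a filter on low counts, E2F7 with TP-0903 (adjusted p = 0.00995) and E2F6 with control shRNA against control (0.008411) passed. E2F8 had 15 to 24 counts per hairpin library, and the power to detect a change at that depth was not tested.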
